A study of Mus musculus with 4 samples.

Results

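The genes described here are the F-box genes whose symbols begin with Fbxl, Fbxo or Fbxw and a number, apart from Fbxo32 and Fbxo30. Those, known denervation-responsive F-box genes of muscle, were left out. The symbol rule found 47 such genes among the 13825 genes of the count table, and all 47 had a mean count of at least 10 and entered the tests, as did 13084 genes in all. By subfamily there were 15 Fbxl genes, 24 Fbxo genes and 8 Fbxw genes. Poly(A) RNA was sequenced from the tibialis anterior (TA), a fast muscle of the lower leg, of adult male wild-type (WT) mice and of mice lacking Fgf21 in the whole body (FGF21KO). A piece of the left sciatic nerve had been removed under isoflurane 14 days earlier, and the right leg of the same mice kept its nerve and served as the sham control. The paper describes a sham operation on that leg. The sample labels and the paper differ on this and on the length of nerve removed. The WT mice were C57BL/6J, and the paper does not name the strain background of the FGF21KO mice. No muscle of an unoperated mouse was part of the comparison. Both genotypes went through the same surgery, which gave 4 groups, the sham (WS) and denervated (WD) muscles of WT mice and those of FGF21KO mice (KS and KD). RNA of 4 muscles was pooled in each group, so each group was a single library, no value for a group has a replicate check, and the intervals below cover counting error only. The knockout is global and not limited to muscle, and no check of the genotypes against the level of Fgf21, a gene not analysed here, was made.

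F-box proteins are the substrate-binding subunits of SCF ubiquitin ligases. The F-box binds Skp1, which sits on the scaffold Cul1 together with the RING protein Rbx1, and the rest of the F-box protein selects what is to be ubiquitinated. Fbxl proteins carry leucine-rich repeats, Fbxw proteins carry WD40 repeats, and Fbxo proteins carry other domains or none that is recognised. In muscle, ubiquitination by such ligases feeds the proteasome, which breaks down myofibrillar and signalling proteins after the nerve is lost.

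Total counts ranged from 25249879 (WS) to 34141303 (KS). Levels are given as CPM, the usual depth-scaled count, after TMM scaling, a correction for libraries whose most abundant RNAs differ, and the denervation effect is the log2 fold change over all 4 libraries in an edgeR quasi-likelihood fit with terms for genotype and surgery. Its adjusted p was Benjamini-Hochberg adjusted over all 13084 genes, and because the fit had 1 residual degree of freedom, its error rests on how far the denervation response differed between the genotypes, pooled over genes. Ncam1, a cell adhesion gene of denervated fibres, was at 10.1 CPM (WS), 102 (WD), 7.91 (KS) and 107 (KD). Summed endothelial markers were at 397 and 319 CPM in the sham libraries against 179 and 173 in the denervated ones, with 4 of 4 lower. Summed macrophage markers were at 5.98 and 7.14 CPM against 22.1 and 19.4, with 3 of 4 higher, and summed fibro-adipogenic markers were at 359 and 376 CPM against 237 and 244, with 3 of 4 lower. Of the 3 satellite cell markers 1 was analysed here, Vcam1, which did not pass the test. Of the 6 muscle fibre markers only Myh1, the fast IIx myosin, was analysed here, and it fell, from 24303 CPM in WS to 15651 in WD and from 21603 in KS to 17532 in KD (-0.47, adjusted p 0.000278). No listed marker in the table was at 0, since every gene in it had at least 1 count in every library, and the part of these other cells in the results below was not tested. In RNA from whole muscle, fewer cells of a type and less RNA per cell cannot be told apart. By cell isolation, the paper counted more fibro-adipogenic progenitors in denervated than in sham limb muscles.

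The denervation comparison asks how these ligase subunits moved with loss of the nerve. Fbxo36, Fbxl8 and Fbxo47 rose more than 2-fold. Fbxl17, Fbxo9, Fbxo31, Fbxo45 and Fbxl14 fell the furthest, to between 0.596 and 0.676 of the sham level. Fbxo40, which supplied 24.5% to 31.2% of all member counts, was at 484 to 571 CPM in the 4 libraries after TMM scaling. With the 2-fold criterion and an adjusted p below 0.05, 3 of 47 members rose, where 6.84% of all genes tested did so, and 0 fell, where 6.24% of all genes did. DESeq2's Wald test also placed 0 members past the 2-fold criterion downward. At an unadjusted p below 0.05 in edgeR, 13 members were lower. In either direction 22 of 47 members were below it, beside 7584 of all 13084 genes. By edgeR's adjusted p alone, 9 members rose against 26.6% of all genes and 13 fell against 27%. In either direction 22 members passed, or 46.8%, against 53.5% of all genes. The median denervation log2 fold change was -0.02 over the members and 0.01 over all genes, and its median size was 0.263 over the members and 0.384 over all genes.

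The balance between higher and lower members depends on the scaling. With total counts in place of TMM the median of all genes moved from 0.01 to 0.33 on the log2 scale, 22 members passed higher and 5 lower, and the share of higher calls went from 40.9% to 81.5% among members and from 49.6% to 78.5% among all genes. Relative to the median of all genes, the members' median was -0.03 under both scalings. Of the 22 members that passed, 2 changed sign with total counts, Fbxw11 (0.13) and Fbxl20 (0.06). Without WS the counts of members passing by adjusted p alone were 7 higher and 9 lower. Without WD they were 4 and 10, without KS 7 and 12, and without KD 4 and 10.

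**Figure D1:**
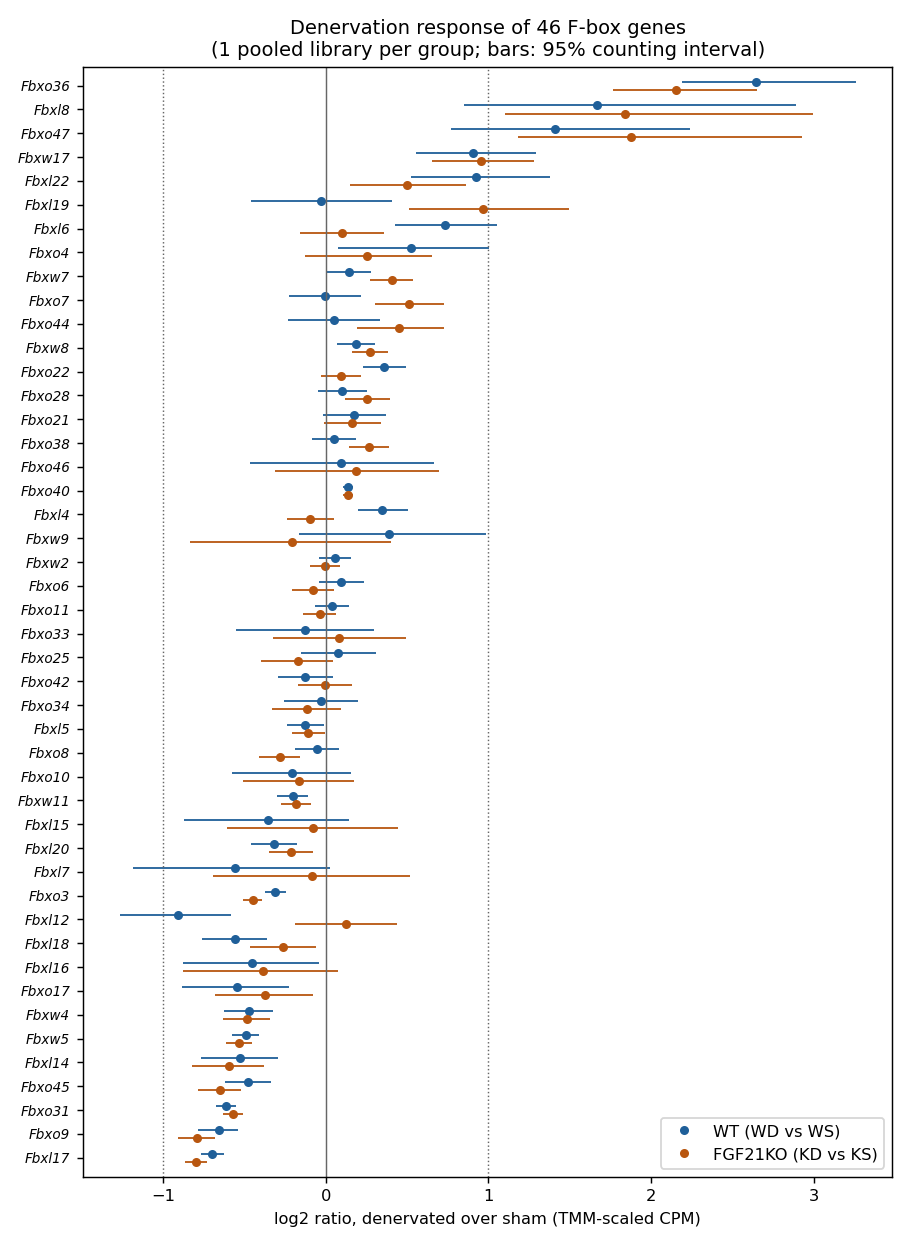
Denervation response of 46 F-box genes, 1 row a gene in order of the effect over 4 libraries, with the log2 ratio of denervated to sham CPM on the x axis as 1 point for WT (WD vs WS) and 1 for FGF21KO (KD vs KS), bars for the 95% counting intervals and dotted lines at 2-fold. Fbxo36 lies farthest from 0 in both genotypes (2.65 and 2.15), Fbxl8 and Fbxo47 follow, and for Fbxl12 the points lie apart at -0.91 in WT and 0.12 in FGF21KO.

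The 3 members past the 2-fold criterion were all of low abundance. Fbxo36 (GRCm38 annotation, chr1:84839841-84900487, plus strand), an F-box gene of little known function, had 34 counts (WS), 311 (WD), 53 (KS) and 253 (KD), or 1.46, 9.53, 1.78 and 8.18 CPM. Both denervated libraries were above both sham libraries by more than 4-fold. Its denervation log2 fold change was 2.43 ± 0.22 (SE over 4 libraries), or 5.38-fold, with an adjusted p of 1.34e-10, and it ranked 147 of the 13084 genes from the top. Per kilobase of annotated exon it went from 0.681 and 0.831 CPM in the sham libraries to 4.44 and 3.81 CPM in the denervated ones.

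Fbxl8 (chr8:105264648-105269326, plus strand), a leucine-rich repeat member, had 11 counts (WS), 54 (WD), 13 (KS) and 54 (KD), or 0.473, 1.65, 0.438 and 1.75 CPM. Its log2 ratio was 1.67 in WT (95% counting interval 0.85 to 2.89) and 1.84 in FGF21KO (1.10 to 2.99). The denervation effect was 1.90 ± 0.40, with an adjusted p of 0.000193. Fbxo47 (chr11:97853826-97884154, minus strand), a gene known for its need in male meiosis, had 21, 82, 15 and 63 counts in WS, WD, KS and KD, or 0.904, 2.51, 0.505 and 2.04 CPM. Its denervation effect was 1.72 ± 0.35, with an adjusted p of 0.000159. For both genes the denervated libraries were above the sham ones in each genotype, on sham counts of 11 to 21. The 2-fold rule on single pairs of libraries picked the same genes, 3 of 47 in WD vs WS (7.18% of all genes higher) and 3 of 47 in KD vs KS (7.51%). No member was at least 2-fold lower in WD vs WS (7.61% of all genes) or in KD vs KS (6.1%).

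Of the 9 members that rose, 6 did so by less than 2-fold. Fbxw17, a WD40 member, was at 3.74 CPM (WS), 7.08 (WD), 4.31 (KS) and 8.41 (KD). The effect was 0.94 ± 0.18 with an adjusted p of 8.38e-05, the next in size after the 3 genes above. Fbxl22, a sarcomeric F-box gene whose product binds the Z-disc proteins alpha-actinin and filamin C, was at 2.75, 5.30, 3.80 and 5.40 CPM, with an effect of 0.71 ± 0.21 and an adjusted p of 0.00649. The denervated libraries were again above both sham ones, but the 2 sham libraries also differed, with KS above WS by 0.46 on the log2 scale (0.01 to 0.93), and 317 exonic bases of Fbxl22 are shared with Herc1 on the opposite strand. Its adjusted p was 0.101 without WS, 0.0506 without WD and 0.0636 without KD.

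The other 4 that rose had small effects. Fbxw7, the tumour suppressor that targets cyclin E and Myc, was at 31.2 CPM (WS), 34.4 (WD), 27.4 (KS) and 36.3 (KD) (0.28 ± 0.09, adjusted p 0.0153). Fbxw8, which works with Cul7 and targets Irs1, was at 42.1, 47.9, 39.9 and 48.2 CPM (0.23, adjusted p 0.0216). Fbxo22, which targets histone demethylases of the Kdm4 family, was at 32.2, 41.3, 35.0 and 37.3 CPM (0.23, adjusted p 0.0381). Fbxl6 was at 5.25, 8.76, 8.08 and 8.66 CPM (0.40, adjusted p 0.0484), so that WS alone was low. Each of these 4 lost its call without WD and without KD, in fits that also dropped the genotype term and held 1 denervated library. Exonic bases shared with another gene on the opposite strand number 1845 for Fbxw8 (with Gm9754) and 368 for Fbxo22 (with Nrg4). Without WS, Fbxl6 was at an adjusted p of 0.653 and Fbxo22 at 0.206, and without KS, Fbxw7 was at 0.154 and Fbxw8 at 0.0910.

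**Figure D2:**
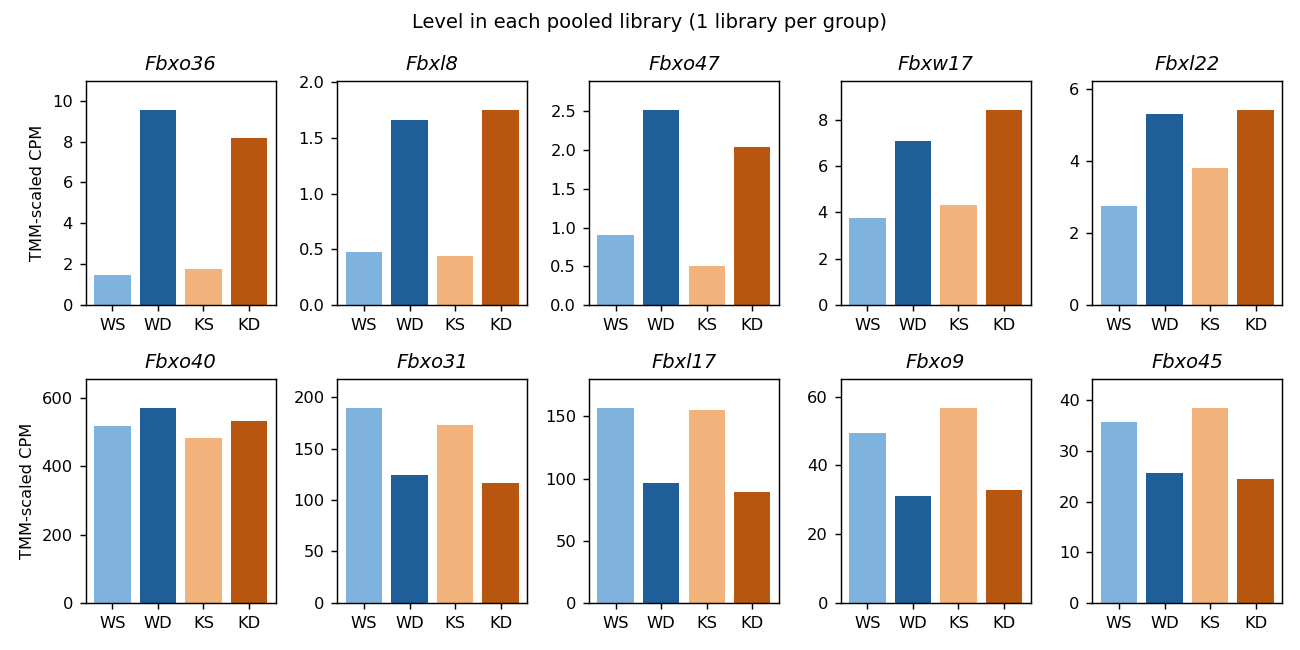
Levels of 10 members, 1 panel a gene, as bars of CPM after TMM scaling on a linear axis that starts at 0, 1 bar for each pooled library (WS, WD, KS and KD) and no error bars. In the panels of Fbxo36, Fbxl8, Fbxo47, Fbxw17 and Fbxl22 both denervated bars stand above both sham bars, in those of Fbxl17, Fbxo9, Fbxo31 and Fbxo45 they stand below, and for Fbxo40 the 4 bars reach 484 to 571 CPM.

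Among the 13 members that fell, the largest effect was that of Fbxl17, a quality-control subunit that recognises wrongly paired BTB domain proteins. It had 3641 counts (WS), 3157 (WD), 4605 (KS) and 2757 (KD), or 157, 96.7, 155 and 89.1 CPM. Both denervated libraries were below both sham ones, the effect was -0.75 ± 0.07 with an adjusted p of 6.99e-10, and it stood at 11522 of 13084 in the order of denervation effects from the top. Fbxo9, which acts on regulators of mTOR signalling, was at 49.4 CPM (WS), 31.2 (WD), 56.7 (KS) and 32.7 (KD) (-0.73 ± 0.09, adjusted p 2.57e-08). Fbxo31, which targets cyclin D1, was at 190, 124, 173 and 117 CPM (-0.59 ± 0.07, adjusted p 4.12e-08). These are deeply counted genes, with at least 1013 counts in every library.

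Fbxo45, an atypical member that pairs with Mycbp2 and is needed for formation of neuromuscular junctions, was at 35.6 CPM (WS), 25.6 (WD), 38.5 (KS) and 24.5 (KD) (-0.57 ± 0.09, adjusted p 8.48e-06). Fbxl14, which targets the transcription factor Snail, was at 13.1, 9.07, 14.1 and 9.28 CPM (-0.57 ± 0.13, adjusted p 0.000672). Fbxw5, an adaptor for Tsc2, was at 102, 72.5, 101 and 69.9 CPM (-0.51 ± 0.07, adjusted p 9.82e-07). For each of the 3 the sham libraries lay close together and above the denervated pair. Fbxw4, a WD40 member, was at 30.8, 22.2, 31.2 and 22.3 CPM (-0.48, adjusted p 0.00013). It shares 676 exonic bases with Gm17018 on the opposite strand. Fbxo3, a ligase subunit that targets Fbxl2, was at 161, 130, 176 and 129 CPM (-0.38 ± 0.07, adjusted p 5.67e-05).

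Of the other members that fell, Fbxw11, the second beta-TrCP, was at 67.7 CPM (WS), 58.8 (WD), 66.1 (KS) and 58.3 (KD) (-0.19, adjusted p 0.0378), a direction that turned to 0.13 with total counts. Fbxl20, which targets the presynaptic protein Rim1, was at 33.8, 27.1, 32.1 and 27.8 CPM (-0.26, adjusted p 0.0191), a direction that turned to 0.06 with total counts. Fbxl20 also shares 674 exonic bases with Gm11632 on its own strand. Fbxl18 was at 18.0, 12.2, 14.3 and 12 CPM (-0.41, adjusted p 0.00665), with WS standing above KS. Fbxo17, of the FBA domain group named for glycoprotein binding, was at 6.97, 4.75, 6.94 and 5.33 CPM (-0.46, adjusted p 0.0324). Fbxw11, Fbxl20 and Fbxo17 lost their calls without WS (adjusted p 0.0659 to 0.0777), without WD (0.156 to 0.260) and without KD (0.0934 to 0.232), Fbxl18 without WS (0.133) and without KD (0.0683), and Fbxo17 also without KS (0.0859). With total counts, Fbxl14 (-0.24), Fbxw4 (-0.16), Fbxo3 (-0.06), Fbxl18 (-0.09) and Fbxo17 (-0.14) kept their sign and did not pass, at adjusted p of 0.132 to 0.574.

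Fbxo40 is a muscle-restricted F-box gene whose product targets Irs1, the insulin receptor substrate. It was the most abundant member in every library, with 12062 counts (WS), 18640 (WD), 14387 (KS) and 16487 (KD), or 519, 571, 484 and 533 CPM. The denervation log2 ratio was 0.14 in WT (0.10 to 0.17) and 0.14 in FGF21KO (0.11 to 0.17), so the counting interval left out 0 in both genotypes. The effect over 4 libraries was 0.14 ± 0.07, or 1.10-fold, with an adjusted p of 0.105, and with total counts it was 0.46 with an adjusted p of 3.79e-05. The difference between the genotypes in this response was 0.00 (-0.05 to 0.05), the narrowest interval among the members. Fbxo40 made up 25.9%, 31.2%, 24.5% and 30.0% of all member counts in WS, WD, KS and KD.

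Per kilobase of annotated exon, Fbxo40 was at 94.1 CPM in WS, followed by Fbxo31 at 34.6, Fbxw5 at 33.4, Fbxl17 at 28.4 and Fbxo3 at 22.3. The 5 members with the most counts (Fbxo40, Fbxo3, Fbxo31, Fbxl17 and Fbxw5) held 56.4% of member counts in WS and 52.8% in KD, and 4 of them fell with denervation. Fbxl8 was the lowest in WS at 0.225 CPM per kilobase and Fbxl7 next at 0.330. The members together were at 2001 CPM (WS), 1830 (WD), 1979 (KS) and 1775 (KD) after TMM scaling, lower in the denervated libraries. As a share of all counts, with no such scaling, they were at 0.184%, 0.205%, 0.172% and 0.198%, higher in the denervated libraries, so the direction turned with the scaling.

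**Figure D3:**
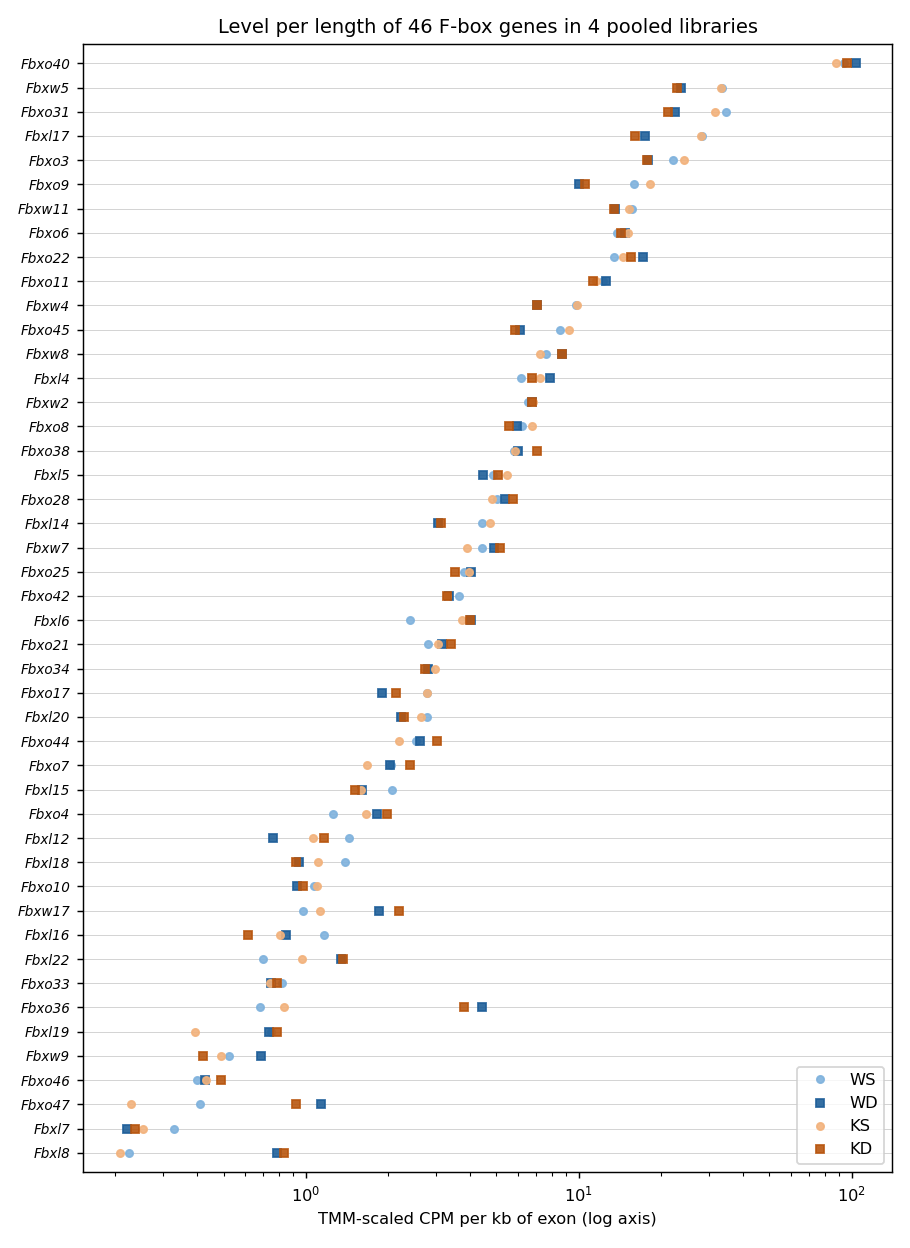
Levels of 46 F-box genes per kilobase of annotated exon (CPM per kb, log axis), 1 row a gene in order of the mean sham level and 1 point for each of the 4 pooled libraries. Fbxo40 stands alone at the top in every library (94.1 CPM per kb in WS), and Fbxl8 is the lowest in WS (0.225).

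Beside Fbxo40, the muscle and atrophy list holds Fbxo21, Fbxo31, Fbxl22 and Fbxo25, and Fbxl21 was not analysed here. Of these 5, 1 rose (Fbxl22), 1 fell (Fbxo31) and 3 did not pass. Fbxo21, a ligase subunit with an atrophy role in muscle, was at 15.5 CPM (WS), 17.6 (WD), 16.9 (KS) and 18.9 (KD) (0.17, adjusted p 0.215, and 0.49 with an adjusted p of 0.00293 with total counts). Fbxo25, the closest relative of Fbxo32, was at 11.4, 12, 11.8 and 10.5 CPM (-0.05, adjusted p 0.775). Its sign was not stable, at 0.27 with total counts and 0.04 without KD. Neither gene passed the test with TMM scaling.

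The counts for the other role lists are descriptions of few genes, to be read against the 26.6% of all genes that passed higher and the 27% that passed lower, and no list was tested. Of 4 listed synapse genes 3 were analysed here, and 2 of these fell, Fbxo45 and Fbxl20, while Fbxl16 did not pass. Of 11 listed cell cycle and growth genes, 9 were analysed here. Among these, 3 rose (Fbxw7, Fbxw8 and Fbxo22), 2 fell (Fbxw5 and Fbxo3) and 4 did not pass. Of 5 listed genes of the FBA domain group, 3 were analysed here. Fbxo17 fell, and Fbxo6 and Fbxo44 did not pass. None of the 3 mitochondrial and iron members passed, namely Fbxl4, which restrains mitophagy receptors, Fbxo7, a Parkinson disease gene of mitophagy, and Fbxl5, the iron sensor that targets Irp2. By subfamily, 3 Fbxl genes rose, 5 fell and 7 did not pass, with a median effect of -0.26. Among Fbxo genes the numbers were 3, 5 and 16 with a median of 0.00, and among Fbxw genes they were 3, 3 and 2 with a median of 0.06. These counts too stand beside 26.6% and 27% of all genes, and the subfamilies were not compared by a test. Of 6 F-box genes under other symbols, Fbh1 rose (0.49, adjusted p 0.000137), Kdm2b (-0.97, adjusted p 1.65e-07) and Btrc (-0.24, adjusted p 0.0282) fell, and 3 did not pass.

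Of 34 measured genes for the SCF core and for neddylation, the modification that switches cullins on, 10 rose, 8 fell and 16 did not pass, with a median of 0.06, shares near the 26.6% higher and 27% lower of all genes. The adaptor Skp1a (0.35, adjusted p 0.000124) and the scaffold Cul1 (0.20, adjusted p 0.0208) rose, and the RING gene Rbx1 fell (-0.46, adjusted p 8.40e-06). Cand1, the factor that exchanges F-box subunits on Cul1, rose (0.58, adjusted p 3.63e-05). Dcun1d4 was the 1 gene of the list more than 2-fold higher (1.08, adjusted p 1.33e-09) and Ube2d1 the 1 more than 2-fold lower (-1.0, adjusted p 2.66e-12), followed downward by Dcun1d2 (-0.92, adjusted p 1.13e-11).

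Among 22 measured genes for known targets and partners of F-box proteins, 12 rose, 6 fell and 4 did not pass, with a median of 0.23, where 26.6% of all genes passed higher and 27% lower. The list was not tested. Irs1, the target of Fbxo40 and Fbxw8, fell from 94.7 CPM in WS and 79.3 in KS to 52.6 in WD and 44.4 in KD (-0.84, adjusted p 1.94e-10). Cul7, the partner of Fbxw8, rose (1.16, adjusted p 1.28e-08). Targets of Fbxw7 went opposite ways, with Myc (1.51, adjusted p 4.89e-09) and Ccne1 (1.97, adjusted p 0.000542) higher and Notch1 lower (-1.13, adjusted p 2.13e-07). The size of the Ccne1 rise rests on sham counts of 12 (WS) and 7 (KS). Jun, on the same list, also rose (1.34, adjusted p 2.34e-15). Aurka, a mitotic kinase gene, had the largest fall of the list (-1.39, adjusted p 1.03e-05). All of these are RNA levels, and protein was not measured in these libraries.

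Promoter windows of members that rose, and of Fbxo40, which did not pass with TMM scaling, are shown to let their sequence be read beside their response. Each is the 250 bases before the annotated start in RefSeq (GRCm38.p6), written 5′ to 3′ on the strand of the gene, with the E-box CAGCTG, a site type bound by myogenic factors such as myogenin, in capitals. The windows are chr1:84839591-84839840 on the plus strand for Fbxo36, chr13:50417614-50417863 on the plus strand for Fbxw17, chr9:66514594-66514843 on the minus strand for Fbxl22 and chr16:36990468-36990717 on the minus strand for Fbxo40.
Fbxo36: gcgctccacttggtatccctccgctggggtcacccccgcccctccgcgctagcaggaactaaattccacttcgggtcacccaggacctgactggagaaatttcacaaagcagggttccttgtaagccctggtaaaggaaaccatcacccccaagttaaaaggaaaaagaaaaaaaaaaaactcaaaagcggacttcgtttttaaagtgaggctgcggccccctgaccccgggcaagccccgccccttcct
Fbxw17: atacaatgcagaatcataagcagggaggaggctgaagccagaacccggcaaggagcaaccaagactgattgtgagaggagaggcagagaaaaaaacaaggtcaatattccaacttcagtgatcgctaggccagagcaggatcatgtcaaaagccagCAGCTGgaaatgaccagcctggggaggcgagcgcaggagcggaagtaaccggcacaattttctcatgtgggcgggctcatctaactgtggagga
Fbxl22: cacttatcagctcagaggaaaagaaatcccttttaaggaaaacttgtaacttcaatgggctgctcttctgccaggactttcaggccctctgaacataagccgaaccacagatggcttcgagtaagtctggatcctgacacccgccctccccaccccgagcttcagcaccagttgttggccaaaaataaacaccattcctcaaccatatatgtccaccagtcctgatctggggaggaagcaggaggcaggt
Fbxo40: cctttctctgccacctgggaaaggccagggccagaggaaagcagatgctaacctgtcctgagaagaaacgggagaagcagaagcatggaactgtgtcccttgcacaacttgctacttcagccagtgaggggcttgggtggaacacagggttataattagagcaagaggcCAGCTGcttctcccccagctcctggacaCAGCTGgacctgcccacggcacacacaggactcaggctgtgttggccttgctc

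The RefSeq table had a window for 36 of 47 members. Among those with no entry were Fbxl5, Fbxl6, Fbxl8, Fbxo3, Fbxo25, Fbxo38, Fbxo45, Fbxo47, Fbxw4 and Fbxw8. Each other member was given 1 window, that nearest its GENCODE start. The windows of all genes below hold every RefSeq start, so a gene can count more than once and the shares are of unlike units. The E-box CAGCTG, which reads the same on both strands, was in 7 of 36 member windows (19.4%) and in 13% of all 32851 windows. Fbxo40 held 2 of them, starting 81 and 53 bases before the start, Fbxw17 held 1, starting 94 bases before it, and Fbxo36 and Fbxl22 held none. Of the members with a window, 1 of 5 that rose and 3 of 9 that fell had the motif. GTAAACA, a core that FoxO factors bind, searched on both strands, was in 0 of 36 member windows and in 3.17% of all windows. The MEF2 consensus was in 1 of 36, that of Fbxo40, and in 2.92% of all windows. A match describes the letters and not a bound site.

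The genotype comparison asks whether these genes differed between FGF21KO and WT mice. According to the paper, the WT mice were purchased and the knockouts came from another laboratory. A difference of strain or colony cannot be told apart here from the loss of Fgf21. The sham and denervated libraries of a genotype came from legs of the same mice. The error of this test therefore holds no spread between mice of a genotype, and its p-values and SE do not measure that spread. In the fit over 4 libraries 0 of 47 members passed with the 2-fold criterion (0.176% of all genes) and 0 by edgeR's adjusted p alone (0.673%), and DESeq2 called 0 with the 2-fold criterion. At an unadjusted p below 0.05 in edgeR there was 1 of 47 members, beside 1037 of all 13084 genes. That member was Fbxl5, at 47.5 CPM (WS), 43.5 (WD), 53.1 (KS) and 49.3 (KD), with a genotype effect of 0.17 ± 0.08 and an adjusted p of 0.614. Next was Fbxl16, at 4.18, 3.03, 2.90 and 2.20 CPM (-0.50 ± 0.24, adjusted p 0.634). Of the 22 targets and partners, 2 passed for genotype by adjusted p, Ccnd1, the cyclin D1 gene (-0.66, adjusted p 0.00674), and Bcl6, whose product is a target of Fbxo11 (0.35, adjusted p 0.0439). The median genotype effect was 0.01 over the members and -0.00 over all genes. No member was 2-fold apart in KS vs WS (2.04% of all genes) or in KD vs WD (1.55%). The most negative and most positive ratios were -0.90 for Fbxl19 (-1.46 to -0.41) and 0.62 for Fbxl6 (0.30 to 0.95) in KS vs WS, and -0.68 for Fbxw9 (-1.28 to -0.16) and 0.61 for Fbxl12 (0.28 to 0.96) in KD vs WD.

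Whether denervation acted differently in the genotypes is the difference between the KD vs KS and WD vs WS log2 ratios. With 1 library in each group it has an interval for counting error but no test, and both ratios share their libraries with the comparisons above. It was at least 1 log2 unit in 1 of 47 members, against 4.11% of all genes. The interval included 0 for 33 members, lay above 0 for 7 (13.6% of all genes) and below 0 for 7 (15.6%). Together these were 29.8% of the members and 29.2% of all genes, so the members stood near the background. Fbxl12 was that 1 member, with 170 counts (WS), 126 (WD), 161 (KS) and 183 (KD), or 7.32, 3.86, 5.42 and 5.92 CPM. WD was the low library, at a ratio of -0.91 in WT (-1.27 to -0.58) and 0.12 in FGF21KO (-0.19 to 0.44), a difference of 1.04 (0.58 to 1.49). In the annotation 1890 exonic bases of Fbxl12 are shared with Ubl5 on the opposite strand, and the strand setting of the counting was not given in the sources used here.

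Fbxl19, a CpG-island binding member, was at 3.40 CPM (WS), 3.34 (WD), 1.78 (KS) and 3.56 (KD). Only KS was low, the ratios were -0.03 in WT (-0.46 to 0.41) and 0.97 in FGF21KO (0.51 to 1.5), and the difference was 0.99 (0.36 to 1.62). The differences of Fbxo7 and Fbxl4, both linked to mitophagy, had opposite signs. Fbxo7 was at 12.7, 12.6, 10.4 and 14.8 CPM, with a difference of 0.52 (0.22 to 0.82), and it shares 314 exonic bases with A230060F14Rik on the opposite strand. Fbxl4 was at 23.4, 29.8, 27.3 and 25.6 CPM, with a difference of -0.44 (-0.65 to -0.24). Other members whose interval left out 0 were Fbxo44 (0.40), Fbxl18 (0.30), Fbxw7 (0.26) and Fbxo38 (0.22) above it, and Fbxl6 (-0.63), Fbxo22 (-0.27), Fbxo8 (-0.23), Fbxo3 (-0.14) and Fbxl17 (-0.10) below it. For Fbxo36, Fbxl8 and Fbxo47 the differences were -0.49 (-1.16 to 0.17), 0.17 (-1.11 to 1.45) and 0.47 (-0.60 to 1.53), wide intervals that the low sham counts allow.

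**Figure D4:**
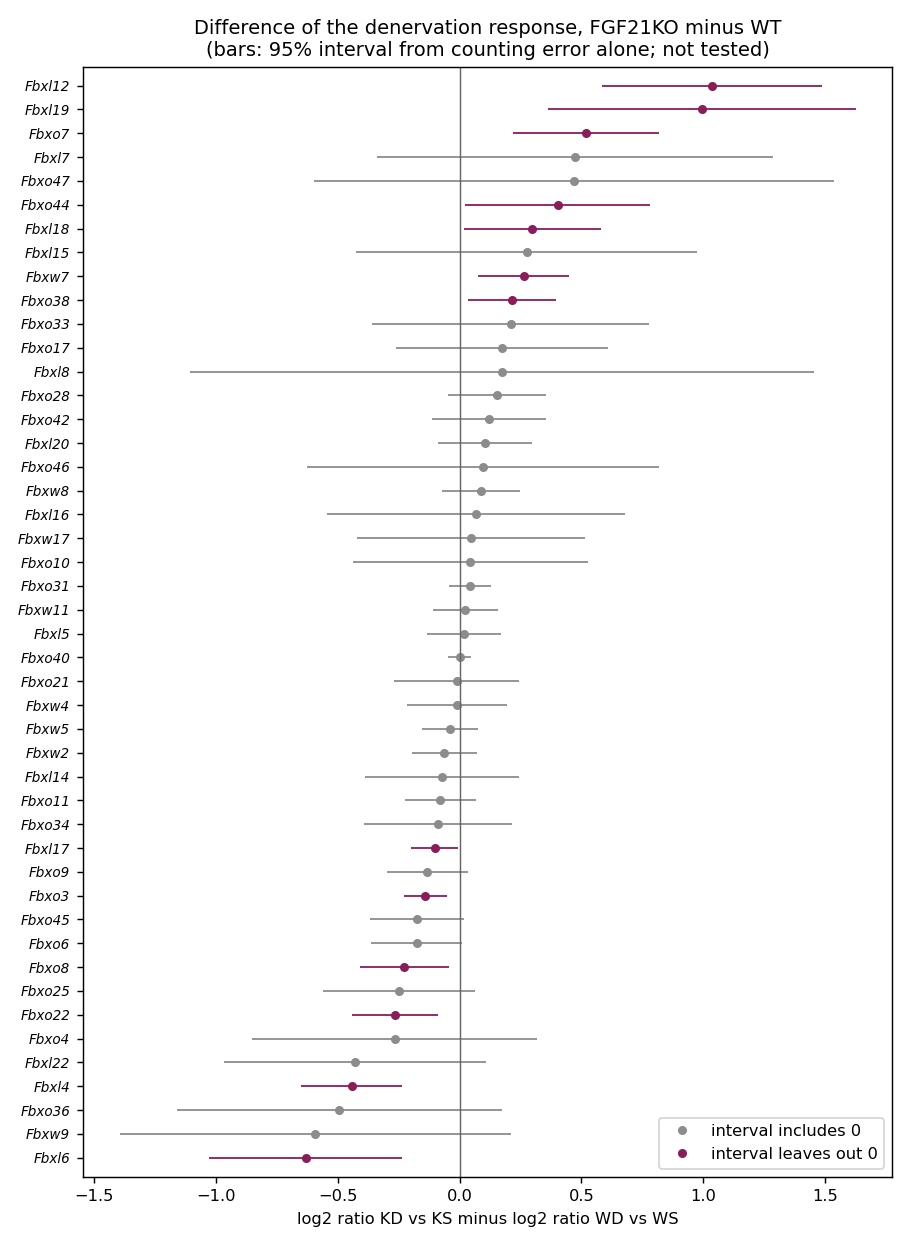
Difference between the genotypes in the denervation log2 ratio (FGF21KO minus WT) for 46 F-box genes, 1 row a gene in order of the difference, with 95% counting intervals and no test. Fbxl12 (1.04) and Fbxl19 (0.99) lie highest, Fbxl6 (-0.63) lies lowest, and 33 intervals include 0.

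The members not yet given did not pass the denervation test. Fbxo4 was at 2.58 CPM (WS), 3.74 (WD), 3.40 (KS) and 4.07 (KD) (0.39, adjusted p 0.164), and Fbxl7 at 2.15, 1.44, 1.65 and 1.55 CPM (-0.33, adjusted p 0.396). Fbxo28 (0.18), Fbxo38 (0.16), Fbxo46 (0.15), Fbxw9 (0.10), Fbxw2 (0.02), Fbxo6 (0.01), Fbxo11 (0.00), Fbxo33 (-0.02), Fbxo42 (-0.07), Fbxo34 (-0.07), Fbxo8 (-0.17), Fbxo10 (-0.19) and Fbxl15 (-0.22) had denervation log2 fold changes at or under 0.22 in size, and none of them passed. Fbxw2, a WD40 member, was at 61.9, 64.3, 64.5 and 64.2 CPM, a narrow range over all 4 libraries.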

How the data were processed

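TA muscle RNA (TruSeq Stranded mRNA) was sequenced from 4 pooled libraries, 1 per group. The authors deposited whole-number counts per gene, with GRCm39 named in the processing notes; aligner, counter and strand setting were not given in the sources used here. A further table deposited by the authors, named for FPKM, held log2(count × 1 factor per library + 1) for 100% of values (relative tolerance 1e-05), so it carries no length correction. It was used only as an alternative.

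After genes under a mean count of 10 were dropped, counts were scaled by TMM in edgeR 4.0.16 (R 4.3.3). Ratios of single libraries used log2 CPM with a prior count of 2 and exact binomial 95% intervals; reads without molecular identifiers are not independent molecules. edgeR's quasi-likelihood test (surgery plus genotype, which pairs the legs of the same mice, 4 libraries, common biological coefficient of variation 0.0681) gave effects, with SE as the size of the log2 fold change over the square root of F, Benjamini-Hochberg adjusted. Calls needed an adjusted p below 0.05, with or without a log2 fold change of at least 1, the study's own criterion. Exon lengths, positions and overlaps came from GENCODE M21 (GRCm38). p-values measure the spread between these libraries only.

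Members and lists were chosen with earlier results of these data known. The rule for named genes took members past 2-fold and called, the 5 highest and 5 lowest members by denervation effect, the muscle and atrophy list, the 3 most abundant members and, of other lists, the 2 highest and 2 lowest called; other genes were named after their values were seen. Alternatives were other scalings, filters, prior counts, DESeq2 1.42.0, the further table, and each library left out together with the genotype term. The fit was also run on simulated counts in which few genes changed, with no genotype effect and with libraries drawn independently. That run does not check the fit under the broad changes and paired legs of these data. Counts cover all 47 members; 1 member and 1 marker are not reported here by name.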

Additional observations from a re-analysis of the deposited data

Results flagged for a closer look

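In 10 of 47 F-box genes the denervation log2 ratio had opposite signs in WT and FGF21KO, and in 4 of these the counting interval of the difference also left out 0. The share of all genes with opposite signs was not taken, so these counts cannot be called high or low for the members. With signs left aside, the interval of the difference left out 0 in 29.8% of members and 29.2% of all genes. The difference in log2 ratio, FGF21KO minus WT, was 1.04 for Fbxl12, 0.99 for Fbxl19, 0.52 for Fbxo7 and -0.44 for Fbxl4. In each of the 4 the interval of the ratio in one genotype included 0 (FGF21KO for Fbxl12 and Fbxl4, WT for Fbxl19 and Fbxo7), so opposite directions are not shown. The difference was not tested for any of them, since each group was a single library.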

How the results depend on the processing

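The 3 members called higher with the 2-fold criterion were also 3 with DESeq2 size factors, no filter and the DESeq2 Wald test, and were 5 with total counts only, 1 with a mean count of at least 50 (Fbxl8 and Fbxo47 were then not tested) and 9, beside 13 lower, with no fold threshold. By adjusted p alone, total counts only gave 22 higher and 5 lower, and the DESeq2 Wald test gave 4 higher and 9 lower. Leaving out 1 library at a time, without the genotype term, gave 3 to 4 higher and 0 to 0 lower members with the 2-fold criterion, and 4 to 7 higher and 9 to 12 lower by adjusted p alone. The 2-fold rule in WD vs WS gave 6 members with total counts only and 1 with the higher filter and with the further table at a pseudocount of 1. In KD vs KS it gave 5, 1 and 1. The count of members whose response differed by at least 1 log2 unit was 2 with total counts only or the smaller prior count, and 0 with the further table at a pseudocount of 1. Fbxw11 (0.13), Fbxl20 (0.058) and Fbxo25 (0.27) changed sign with total counts only, and Fbxo25 (0.044) without the FGF21KO denervated library; apart from the scaling's shift of all genes, the cause was not tested. Of the 22 members that passed, 9 passed under every alternative in which they were tested, namely Fbxo36, Fbxl8, Fbxo47, Fbxw17, Fbxw5, Fbxo45, Fbxo31, Fbxo9 and Fbxl17. The genotype term also pairs the legs, which came from the same mice; with no such replicate block, 3 higher and 0 lower passed with the 2-fold criterion, and 7 higher and 13 lower by adjusted p alone. At sham counts of 11 to 53, the size of the rise of Fbxl8, Fbxo47 and Fbxo36 is limited by depth.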
